A study of Mus musculus with 2 samples.

Results

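The cytosolic ribosomal protein genes encode the proteins of the large (Rpl) and small (Rps) subunits of the ribosome. They were taken here as the protein-coding mouse genes (GRCm38, the same assembly as mm10) whose symbols begin with Rpl or Rps and a number, leaving out the Rps6k kinases, Rps19bp1 and names that mark pseudogenes or related genes. This gave 83 genes among the 21535 protein-coding genes whose strand was known. Of these, 51 belong to the large subunit and 32 to the small subunit, and they lie on 19 chromosomes.

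The measurement was chromatin immunoprecipitation followed by sequencing (ChIP-seq) of histone H3 trimethylated on lysine 4 (H3K4me3). The cells were MEL, an established mouse erythroleukaemia line, after 5 days in 2% dimethyl sulphoxide (DMSO), with chromatin sheared to fragments of 150 to 350 bp. A single group of 2 biological replicates was profiled and untreated MEL cells were not analysed here, so no contrast between conditions was made. The deposited peak lists hold 48026 peaks in replicate 1 and 46950 in replicate 2 on the chromosomes used, and no read counts, so the sequencing depth behind each peak is unknown.

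H3K4me3 is deposited around the starts of genes that RNA polymerase II transcribes, on the nucleosomes that flank the start rather than on the start itself, which is often free of nucleosomes. Ribosomal protein genes are short, transcribed in nearly every cell, and many begin their transcripts with a run of pyrimidines, the terminal oligopyrimidine (TOP) tract through which growth signals control their translation. DMSO drives MEL cells towards red cells, a lineage in which ribosome shortage is felt early: loss of 1 copy of any of several ribosomal protein genes causes Diamond-Blackfan anaemia in people.

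A gene was called marked when the 1000 bp on either side of its start overlapped a peak by at least 1 bp in both replicates. By this rule 77 of the 83 ribosomal protein genes were marked, against a background of 48.0% of all protein-coding genes. The 6 unmarked genes were Rpl3l, Rpl10l, Rpl32l, Rpl37rt, Rpl39l and Rps27rt. All 6 belong to the 10 members whose names mark them as like genes or retrocopies of another member, and the other 73 members were all marked. The remaining 4 copies, Rpl7l1, Rpl22l1, Rpl36al and Rps27l, were marked. None of the 6 unmarked genes had a peak of even 1 replicate in its window. The lowest −log10 q among the strongest peaks of the 77 genes was 13.5, at Rpl10a in replicate 1.

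Some of the unmarked copies are known from other tissues. Rpl3l replaces Rpl3 in heart and skeletal muscle, and Rpl10l and Rpl39l stand in for the X-linked Rpl10 and for Rpl39 in the testis. Rpl3l (chr17:24727826-24736143, plus strand) has its start 3097 bp from the nearest peak in replicate 1 and 3408 bp in replicate 2, and those peaks are the far end of the domain that begins at Rps2, its upstream neighbour. Rpl10l (chr12:66284401 at its start, minus strand) had a peak 3713 bp away in replicate 1, with an enrichment value of 3.06 and a −log10 q of 1.42, and its nearest peak in replicate 2 was 193239 bp away. Rpl39l was 213678 bp from its nearest peak in replicate 1 and 104540 bp in replicate 2, and Rps27rt 113523 and 113781 bp. Rpl32l was 58309 and 52574 bp away. Rpl37rt was 8461 and 8474 bp from a peak with enrichment values of 18.0 and 19.1.

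The parent genes of these 6 copies were all marked. The enrichment value is the signal value in the seventh column of the deposited peak lists, whose scale no label states, and for each gene the highest value in the window was taken in each replicate. Rpl3 had 11.1 in replicate 1 and 11.0 in replicate 2, and Rpl10 had 10.5 and 10.4. Rpl39 had 15.1 and 15.3, and Rps27 had 12.1 and 16.2. Rpl37 had 15.1 and 11.0, and Rpl32 had 5.38 and 14.9. Rpl32 was the least repeatable of the parents, and the rest lay between 10.4 and 16.2 in both replicates.

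The sequences of a gene and its copy show what is and is not shared at the start. Both lines below, from RefSeq on GRCm38.p6, run from 60 bases before the start to base 30 of the transcript. Capitals mark the longest run of bases that the pair shares over their 300-base promoter windows, as far as it is printed. Rps27 is at chr3:90213619-90213708 on the minus strand and Rps27rt at chr9:114982710-114982799 on the minus strand.
Rps27: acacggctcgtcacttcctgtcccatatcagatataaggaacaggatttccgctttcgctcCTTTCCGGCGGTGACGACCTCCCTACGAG
Rps27rt: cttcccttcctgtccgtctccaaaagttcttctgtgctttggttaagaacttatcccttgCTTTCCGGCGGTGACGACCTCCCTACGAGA
The shared run is 38 bases long and starts at base 2 of the Rps27 transcript and at base 1 of Rps27rt. Before the start, the printed bases of the pair are not part of it. For the other 6 pairs with both promoters in the table, the longest shared run was 7 or 8 bases. In the 300 bases from 250 before to 50 after the start, Rps27rt has 9 CpG dinucleotides and Rps27 has 22.

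The other unmarked copies varied in CpG. Rpl3l has 2 CpG in its 300 bases, Rpl32l has 3, Rpl37rt 12, Rpl10l 13 and Rpl39l 17, which is as many as its parent Rpl39. Over the 6 unmarked genes the median was 10.5, against 21 over the 58 marked members with a promoter in the table. It was 22 over all marked protein-coding genes and 13 over all protein-coding genes. The counts overlapped, running from 2 to 17 at the unmarked genes and from 8 to 42 at the marked members. The 2 promoters with the fewest CpG, printed from 60 bases before to base 20 of the transcript with the first transcribed base in capitals, lie at chr17:24727766-24727845 and chr10:20208379-20208458, both on the plus strand.
Rpl3l: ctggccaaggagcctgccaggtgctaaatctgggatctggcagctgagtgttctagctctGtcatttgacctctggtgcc
Rpl32l: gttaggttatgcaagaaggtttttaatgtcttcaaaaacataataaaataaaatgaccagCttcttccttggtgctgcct

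Pseudogenes named after ribosomal proteins, of which mammalian genomes carry many, were looked at by the overlap of their annotated span with peaks. Of 309 such pseudogenes, 0 had a peak of both replicates over the span. Taking 3 as the upper limit of a count of 0 would give 0.971%, which treats the pseudogenes as independent. The same overlap measure gave 94.0% for the 83 ribosomal protein genes and 1.82% for all 10429 pseudogenes. Processed pseudogenes and their parents can be nearly identical, and how reads that match several places were treated is not stated with the files, so its part in these counts was not tested.

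Promoters of 64 of the 83 members were in the RefSeq table and the other 19 were not matched. A pyrimidine start, meaning the word CTTTC or one of the words TCTTT or CTTTT, or else TTTTC, within 10 bases of the first transcribed base, was found in 23.4% of the 64, against 6.06% of all 17492 protein-coding promoters and 5.13% of the 8504 marked ones. The first base itself, a measure added after the data had been seen, was C or T in 48.4% of members and 23.1% of all promoters. The 5 examples that follow are shown because the run of C and T across their first base is long, from 60 bases before to base 20 of the transcript, with the run of C and T that holds the first base in capitals. They are at chr7:4792905-4792984 (plus strand), chr4:86857348-86857427 (minus), chr17:33955646-33955725 (minus), chr2:39005112-39005191 (minus) and chr14:18270967-18271046 (minus).
Rpl28: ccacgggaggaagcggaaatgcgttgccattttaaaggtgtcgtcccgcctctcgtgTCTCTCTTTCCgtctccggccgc
Rps6: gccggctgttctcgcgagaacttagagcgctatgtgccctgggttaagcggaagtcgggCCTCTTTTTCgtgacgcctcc
Rps18: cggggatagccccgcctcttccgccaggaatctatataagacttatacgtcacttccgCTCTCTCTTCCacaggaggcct
Rpl35: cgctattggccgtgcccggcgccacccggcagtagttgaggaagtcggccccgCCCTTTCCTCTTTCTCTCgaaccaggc
Rpl15: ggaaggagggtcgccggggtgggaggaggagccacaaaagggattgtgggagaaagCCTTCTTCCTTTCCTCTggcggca
The run is 11 bases long at Rpl28 and Rps18, 10 at Rps6, the protein that S6 kinases phosphorylate, 18 at Rpl35 and 17 at Rpl15. The run at Rps18 alternates C and T and holds none of the words above, so Rps18 is not among the 23.4%.

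Motifs searched on both strands of the 300 bases also differed in share. GGAAG, the core bound by ETS factors, was in 92.2% of member promoters, 72.1% of all and 76.4% of the marked ones, and the longer CCGGAAG, which contains it, in 35.9%, 11.9% and 21.1%. CGCGAGA was in 20.3% of members, 3.64% of all and 6.26% of the marked ones. The longer CCGGAAG and the word CGCGAGA were added to the list after the data had been seen. The GC box GGGCGG was in 56.2% of members, 46.3% of all and 68.2% of the marked ones. TATAA was in 26.6%, 22.8% and 12.1%, CCAAT in 29.7%, 39.0% and 39.8%, and CACCC, a motif of Klf factors, in 56.2%, 58.4% and 62.2%. GATAA, a motif of GATA factors, was in 29.7% of members, 23.0% of all and 15.4% of the marked ones. The YY1 words AAGATGGC and CAAGATGG, which overlap each other, were in 7.81% and 4.69% of members, 3.22% and 2.32% of all promoters, and 5.32% and 3.53% of the marked ones. A match describes letters and is not evidence of binding. The 4 promoters below show the CGCGAGA word close to the start, with CGCGAGA and CCGGAAG on either strand in capitals, at chr7:24884532-24884611 (plus), chr2:32961652-32961731 (plus), chr17:33824543-33824622 (minus) and chr11:68901506-68901585 (plus).
Rps19: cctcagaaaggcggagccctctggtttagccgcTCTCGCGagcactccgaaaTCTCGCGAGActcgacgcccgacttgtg
Rpl12: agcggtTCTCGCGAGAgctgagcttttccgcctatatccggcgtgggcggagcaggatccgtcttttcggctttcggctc
Rps28: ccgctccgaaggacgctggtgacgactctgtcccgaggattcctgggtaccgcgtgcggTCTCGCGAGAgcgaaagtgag
Rpl26: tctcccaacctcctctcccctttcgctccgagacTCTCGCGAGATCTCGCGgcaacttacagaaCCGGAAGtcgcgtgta

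The height of the mark was close to that of all marked genes. The median enrichment value over the 77 genes was 13.1, with 13.4 in replicate 1 and 12.1 in replicate 2. Over all 10330 marked protein-coding genes it was 13.3, with 12.4 in replicate 1 and 13.7 in replicate 2. The members thus lay above all marked genes in replicate 1 and below them in replicate 2, and 38 of the 77 exceeded the median of all marked genes. The interquartile range was 10.5 to 15.6 over members and 10.9 to 15.8 over all marked genes.

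At the top, Rpl24, a large subunit protein at the interface between subunits, had 15.0 in replicate 1 and 33.1 in replicate 2, a mean of 24.1 ± 12.8 (SD, n = 2). Its mean lay at percentile 99.3 of all marked genes, a place that rests on replicate 2. Rpl11, which with Rpl5 and a ribosomal RNA binds Mdm2 when ribosome assembly fails, had 16.0 and 21.6. Its partner Rpl5 had 18.3 and 11.1. Rpl27 had 18.6 and 18.7 and Rps28 18.1 and 18.2, the closest agreement among the 10 highest. The rest of these 10 were Rps10 (21.4 and 15.5), Rpl37a (18.8 and 17.4), Rps13 (20.6 and 13.7), Rps6 (19.8 and 13.8), Rps15a (17.9 and 15.6) and the copy Rpl7l1 (17.5 and 15.8). In replicate 1 alone, Rps29 was highest, at 22.2, against 11.0 in replicate 2.

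At the bottom, Rpl10a had 3.45 in replicate 1 and 6.55 in replicate 2, at percentile 2.42 of all marked genes. Rps21, a small subunit protein, had 5.66 and 8.04. Rpl19 had 7.16 and 6.85, Rpl35a 6.70 and 10.2, and Rps14, whose loss underlies the anaemia of the 5q- syndrome in people, 8.21 and 8.70. These 5 lie on 5 chromosomes.

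**Figure D1:**
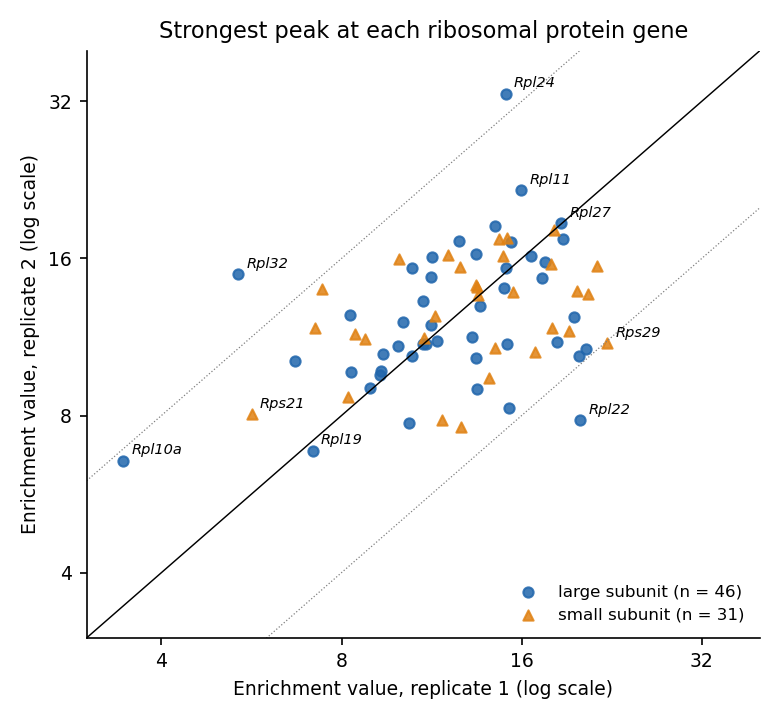
Each point is a marked ribosomal protein gene, placed by the enrichment value of its strongest peak in replicate 1 (x) and replicate 2 (y), both on log scales and without units. Circles are the 46 large subunit genes, triangles the 31 small subunit genes, the solid line is equality and the dotted lines are 2-fold apart; Rpl24, Rpl32, Rpl22 and Rps29 lie beyond them.

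The enrichment value of a single member varied between replicates, as the plot of replicate 1 against replicate 2 shows. Across the 77 genes the values of the replicates had a Spearman rho of 0.356 and a Pearson r of 0.392 on the log2 scale, and across all marked genes 0.518 and 0.633. These describe genes within the same libraries, which are not independent replicates. Between replicates 4 members differed by over 2-fold, which is 5.19% of members and 4.19% of all marked genes. As log2 of replicate 1 over replicate 2 these were Rpl22 (1.36), Rps29 (1.01), Rpl24 (−1.14) and Rpl32 (−1.47). Rpl32 had 5.38 and 14.9, and Rpl22, a large subunit protein needed by developing T cells, 20.0 and 7.83.

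The spread was wider where the strongest summit changed place. In 38 members the summit of the strongest peak differed by over 300 bp between replicates, which is 49.4% of members against a background of 42.4% of all marked genes. Their median absolute log2 ratio was 0.49, and in the other 39 it was 0.17. Value and summit are read from the same peak, so these are not independent measures. The split was not planned, and the ratios were not split this way over all marked genes. All 4 members past 2-fold were among the 38. At Rpl22 the downstream peak ran from 164 to 1800 bp after the start in replicate 1 and from 142 to 1803 bp in replicate 2. At Rpl24 a single peak from −398 to 1646 bp in replicate 1 corresponded to a pair in replicate 2, from −404 to 40 bp and from 99 to 1679 bp, and the second of these carried the value of 33.1.

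Members lay farther from the typical marked gene in the extent of the mark than in its height; no test over genes was run. Peaks at most 1000 bp apart were joined into domains. The median domain was 2797 bp wide at the 77 genes, with 2819 bp in replicate 1 and 2714 bp in replicate 2, against 2260 bp over all marked genes, with 2266 and 2246 bp. Domain width was repeatable, with a Pearson r of 0.902 between replicates on the log2 scale across the 77 genes and 0.915 across all marked genes. The extra width lay downstream of the start. Domains reached a median of 928 bp upstream at members and 864 bp at all marked genes. Downstream they reached 1881.5 bp at members, with 1891 and 1784 bp in the replicates, against 1285 bp at all marked genes, with 1279.5 and 1278 bp. The difference of 596.5 bp was larger than the spread between replicates, in which it was 614 and 515 bp. A domain reached at least 1000 bp downstream in 97.4% of marked members, against a background of 71.8% of all marked genes, and 65 of the 77 lay above the median of all marked genes.

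**Figure D2:**
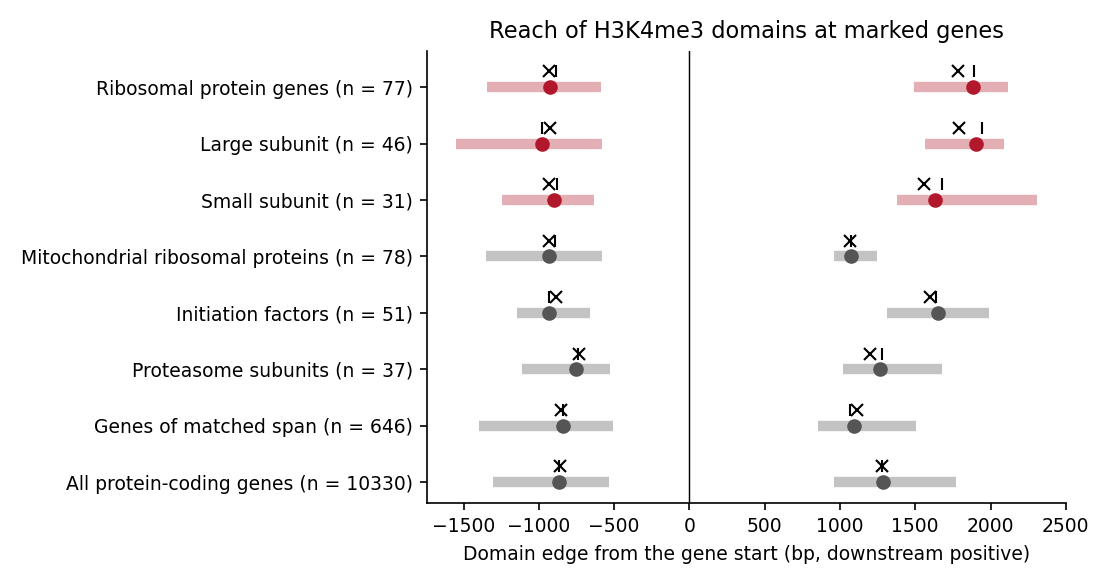
Median distance of the domain's upstream (left) and downstream (right) edge from the gene start, in bp, for marked genes of each group; dots are medians of the mean of both replicates, bars span the interquartile range over genes, and the small marks above are the medians of replicate 1 (vertical tick) and replicate 2 (cross). Upstream edges lie close together, while the downstream median is 1881.5 bp for ribosomal protein genes, against 1074 bp for mitochondrial ribosomal protein genes and 1285 bp for all marked genes.

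Other gene families that most cells use varied in this reach. The mitochondrial ribosomal protein genes, all 78 of which were marked, had a median downstream reach of 1074 bp and an upstream reach of 931.5 bp. The marked proteasome subunit genes, 37 of 40, reached 1263.5 bp downstream, and the marked translation initiation factor genes, 51 of 56, reached 1651.5 bp. Among all 646 marked genes outside the members whose span was within the interquartile range of the members' spans, 2409 to 4451 bp, the downstream reach was 1091.5 bp. A reach of at least 1000 bp was found in 90.2% of the marked initiation factor genes and 78.4% of the marked proteasome genes. It was found in 62.8% of the mitochondrial ribosomal protein genes and 58.8% of the 646 genes of like span. These groups were compared as descriptions, with no test over genes.

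As a share of the gene, the downstream domain covered a median of 56.2% of the distance from start to end at members, and 5.91% at all marked genes. Gene length differs between these groups, with a median span of 3164 bp at members and 21837 bp at all marked genes. At the 646 marked genes of like span the share was 33.0%. At 8 members it ran past the annotated end of the gene in both replicates. Rps2, Rps12, Rps18, Rps21, Rps27, Rpl28 and Rpl41 were among them. The same count was not made over all marked genes or those of like span, so it is not read as particular to members. Rpl41, the shortest protein of the ribosome, has a gene of chr10:128548110-128549168 on the minus strand and a domain that reached 2757.5 bp from its start. The part past the gene end was mainly a separate peak, joined by the 1000 bp rule. That peak ran from 1478 to 2890 bp in replicate 1 and from 1458 to 2625 bp in replicate 2. The Spearman rho between downstream reach and gene span was 0.340 across the 77 genes, and between downstream reach and enrichment value −0.0811.

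The widest domains also held neighbouring starts. The 5 widest were at Rpl36a (7416 bp in replicate 1 and 6424 bp in replicate 2), Rpl35 (6137 and 6223 bp), Rps18 (6030 and 6094 bp), Rps2 (5348 and 5551 bp) and Rpl18 (4826 and 4716 bp). Each of these 5 domains also held the start of another protein-coding gene: Btk at Rpl36a, Arpc5l at Rpl35, B3galt4 and Vps52 at Rps18, Ndufb10 at Rps2 and Sphk2 at Rpl18. In all, 20 of the 77 domains (26.0%) held another protein-coding start, near the background of 21.5% of all marked genes. Likewise 15 members (19.5%) had one on the opposite strand within 1000 bp, against 18.2% of all marked genes, among them Rps28 with Ndufa7 and Rpl12 with Lrsam1. Over the 57 domains with no other start, the downstream reach was 1930 bp at members, against 1300.5 bp at the 8113 such domains of all marked genes, and the upstream reach was 821.5 bp and 751.5 bp. Among the narrowest domains were those at Rps15 (1785 and 1846 bp), Rpl22l1 (2029 and 1688 bp), Rps23 (2135 and 1976 bp) and Rpl5 (2420 and 1755 bp).

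**Figure D3:**
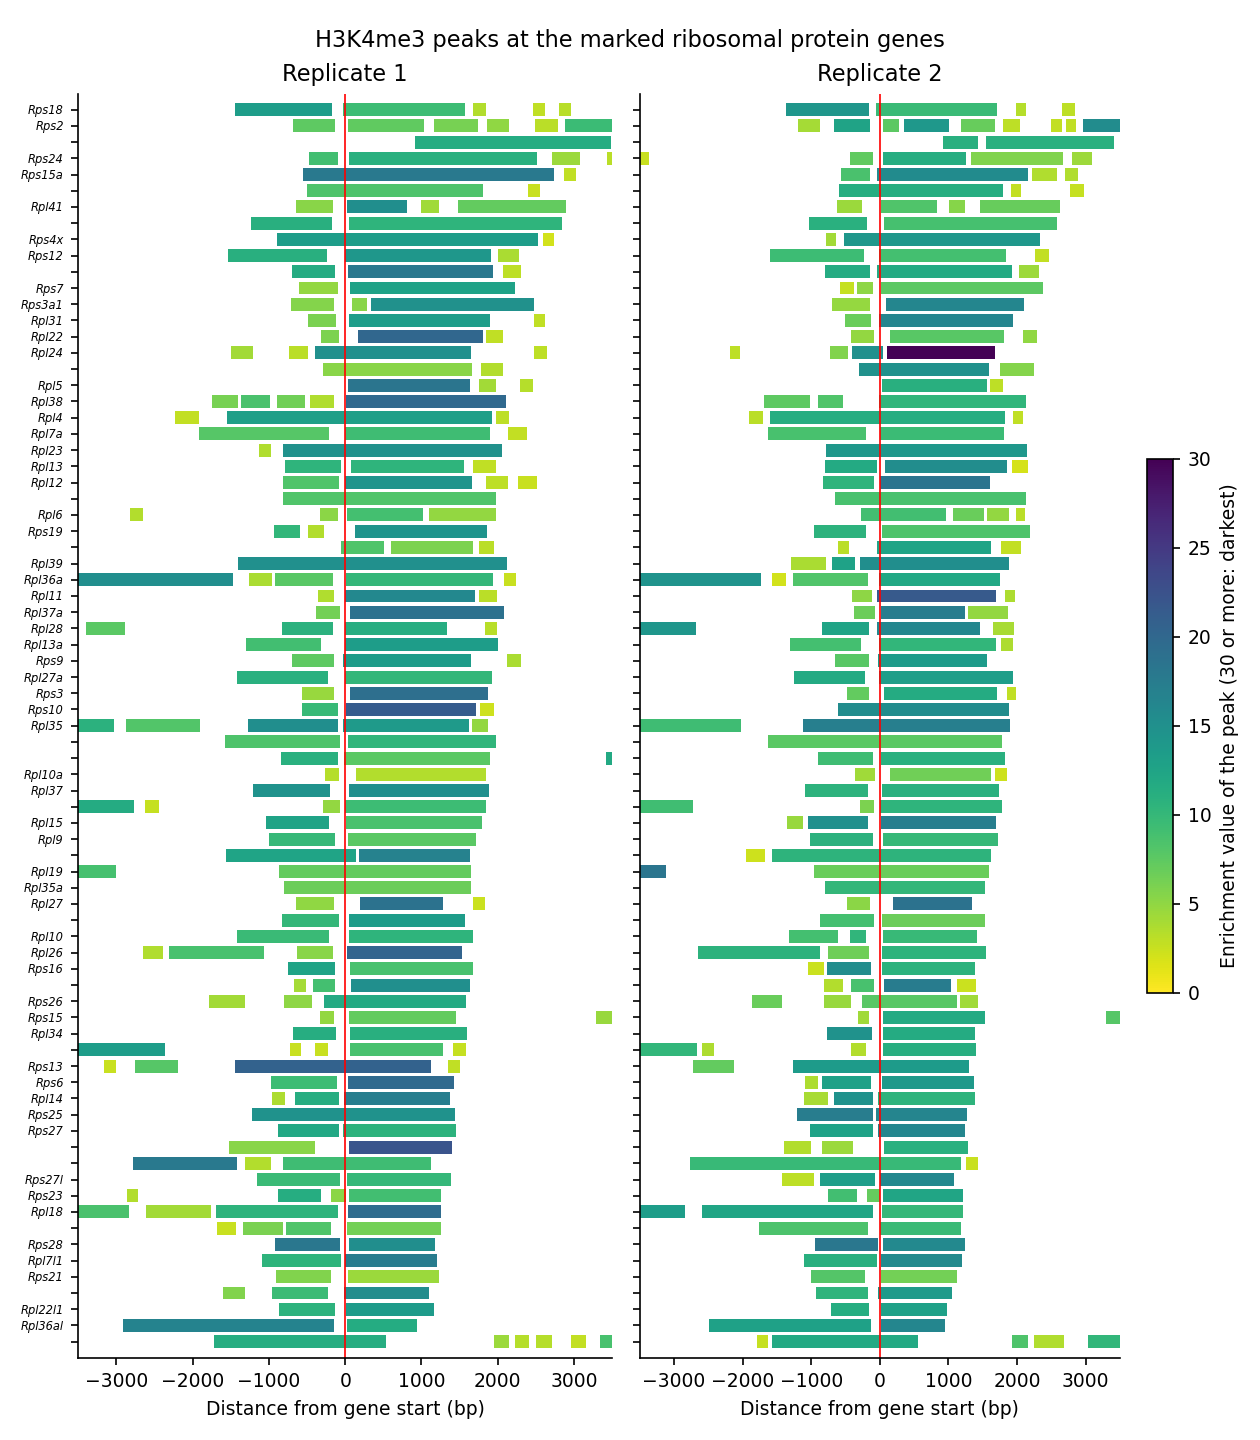
Peaks at each of the 77 marked ribosomal protein genes in replicate 1 (left) and replicate 2 (right), drawn by distance from the gene start in bp with transcription running to the right and cut at 3500 bp; colour is the enrichment value, with 30 or more darkest. Rows are ordered by downstream reach, names are given for genes with a listed transcript start, and many rows show a gap at the start (red line) and a longer peak after it.

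A peak centred on each side of the start was found at 62 of the 77 genes in replicate 1 and at 60 in replicate 2, as the map of peaks shows row by row. These are 80.5% and 77.9% of members, against a background of 71.5% and 58.5% of all marked genes. The start itself lay outside every peak in both replicates at 35 of the 77 genes, 45.5%, against a background of 30.3% of all marked genes. This was not particular to members. The share was 50% at 10 other translation genes of the TOP class and 41.2% at marked initiation factor genes. It was 32.4% at marked proteasome subunit genes, 25.6% at mitochondrial ribosomal protein genes and 14.8% at ribosome biogenesis genes. The start of members lay inside a peak in both replicates at 29 genes, 37.7%, against a background of 45.3%, and the replicates differed at 13. Taken singly, the start was inside a peak at 40.3% of members in replicate 1 and 51.9% in replicate 2, against 47.3% and 67.6% of all marked genes. The interval that held the start had a median length of 182 bp in replicate 1, over 44 genes, and 193 bp in replicate 2, over 35 genes. Its median edges were at −137.5 and 42 bp in replicate 1 and at −144 and 33 bp in replicate 2, counted from the start. Among single genes, the interval at Rpl27 ran from −149 to 200 bp in replicate 1 and from −145 to 194 bp in replicate 2.

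**Figure D4:**
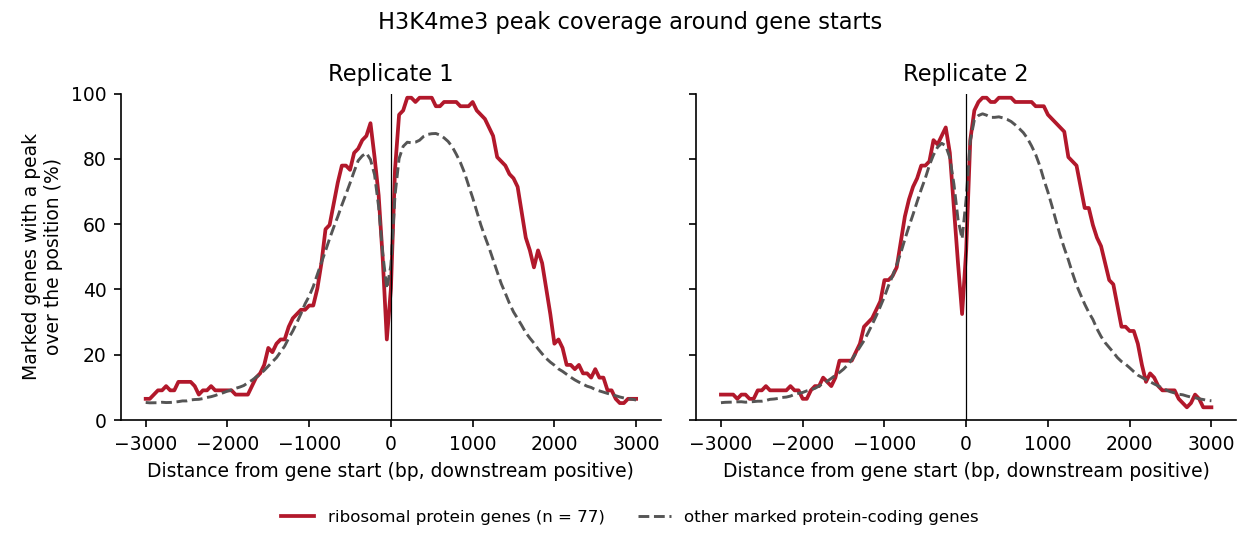
Share of marked genes, in percent, with a peak over each position from 3000 bp before to 3000 bp after the gene start, in steps of 50 bp, for the 77 ribosomal protein genes (solid) and the other marked protein-coding genes (dashed) in each replicate. Both curves have their lowest point near the start at −50 bp, deeper at ribosomal protein genes (24.7% and 32.5%) than at other genes (40.2% and 55.5%), and the solid curve stays high farther downstream.

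Averaged over genes, the coverage profile dipped at the start, with its lowest point there 50 bp upstream. There a peak covered 24.7% of members in replicate 1 and 32.5% in replicate 2, against 40.2% and 55.5% of other marked genes. Downstream, coverage first dropped below 50% at 1750 bp in replicate 1 and 1700 bp in replicate 2 at members, and at 1250 bp in both replicates at other marked genes. Upstream it crossed 50% at 850 bp in every case.

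The downstream flank was usually the stronger, at members as at marked genes in general. Where both flanks had a peak, the higher value was downstream in 45 of 62 members in replicate 1 (72.6%) and in 45 of 60 in replicate 2 (75%), near the background of 67.8% and 73.6% of all marked genes with both flanks. The median value of the strongest downstream peak was 13.4 in replicate 1 and 11.8 in replicate 2, and that of the strongest upstream peak 9.06 and 9.40. Over all marked genes with both flanks these medians were 11.7 and 13.0 downstream, and 9.28 and 9.82 upstream. Of 55 genes with both flanks in both replicates, 32 were higher downstream in both, a share of 58.2% that equals the background of 58.2%, while 7 were higher upstream in both and 16 changed side. Rps28 was an example of the reverse, with 18.1 and 18.2 upstream, on the side of Ndufa7, and 15.3 and 15.8 downstream.

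Among the 58 marked members with a promoter in the table, the start was outside peaks in both replicates at 3 of the 13 with a pyrimidine start and at 25 of the 45 without one. The 3 were Rps6, Rpl15 and Rpl18. This split was made after the values were seen. Of all marked genes, not split in this way, 30.3% had the start outside peaks. The split was not made over all marked genes, so a link with the pyrimidine start was not tested.

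Large and small subunit genes were set side by side, with no test over genes. Marked shares were 90.2% of 51 large subunit genes and 96.9% of 32 small subunit genes, and 100% of each without the like genes and retrocopies. Median enrichment values were 12.6 for the large subunit and 13.8 for the small subunit, 12.9 and 13.6 in replicate 1, and 11.6 and 13.6 in replicate 2. The difference, −1.18, had the same sign in both replicates but depended on how the value was taken: with the peak nearest to the start in place of the highest one it was 0.114. Domains were 2838 bp wide at large subunit genes and 2788 bp at small subunit genes. This difference of 49.5 bp was −117 bp in the set from both replicates pooled and 335.5 bp with peaks joined over 3000 bp, so it gives no direction. Downstream they reached 1906 bp at large subunit genes and 1631 bp at small subunit genes, with differences of 265 bp in replicate 1 and 232 bp in replicate 2. Without the like genes and retrocopies the reach was 1970.5 and 1773.5 bp, a difference of 197 bp. This difference was not recomputed under the other alternative settings. The start was outside peaks in both replicates at 45.7% of marked large subunit genes and 45.2% of marked small subunit genes.

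The 20 members whose human counterparts are Diamond-Blackfan anaemia genes were all marked, as were all 73 members that are not copies. Their median enrichment value was 14.9, with 15.7 in replicate 1 and 12.1 in replicate 2, beside 13.4 and 12.1 over all marked members. They thus lay higher in replicate 1 only, by these medians. They ran from 8.44 at Rpl35a to 18.8 at Rpl11. Rps19, the most often mutated of them, had 14.4 and 10.8, with its start outside peaks in both replicates. Their median downstream reach was 1813.5 bp.

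The 28 members that host small nucleolar RNAs within their span, 55 such RNAs in all, were all marked, beside 77 of all 83 members. Their median downstream reach was 2024 bp, with 1988 and 1906 bp in the replicates, against 1714 bp at the 49 marked members without one, with 1799 and 1623 bp. Their median enrichment value was 11.8, against 13.8.

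Related genes outside the symbol rule were marked too. All 6 further subunit protein genes were marked, with a downstream reach of 1568 bp. They include the acidic stalk proteins Rplp0 (17.7 and 7.42), Rplp1 (16.3 and 15.9) and Rplp2 (14.0 and 16.5), Rpsa (10.5 and 13.7) and the ubiquitin-like fusion Fau (11.9 and 14.6). The 10 other translation genes of the TOP class, such as Eef1a1 and Tpt1, were all marked, with a median downstream reach of 1883 bp and value of 13.2. All 10, and all 6 further subunit protein genes, had a domain reaching at least 1000 bp downstream. The 27 ribosome biogenesis genes were all marked, with 1405.5 bp downstream, and their start was outside peaks in both replicates in 14.8%. All these are read beside the background of 48.0% given above.

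The labelled cell type was checked against markers. All 8 erythroid markers were marked. The highest were Klf1 (20.7 and 21.3) and Gata1 (21.1 and 15.0), and the lowest were Epb42 (4.12 and 3.82), Slc4a1 (3.97 and 4.51) and Nfe2 (4.40 and 7.25). None of the 4 T cell, 4 B cell or 4 granulocyte and macrophage markers was marked, and 1 of 4 fibroblast and endothelial markers was, Col1a1, whose 4.51 and 5.82 lie above the values of Epb42 and Slc4a1.

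An older peak set of the series, deposited on mm9 with its source libraries not given, was read against GENCODE M1 transcripts on that build. There 75 of the 78 members found by symbol were marked, with Rpl3l, Rpl10l and Rpl39l unmarked, against 47.1% of all 22238 protein-coding genes.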

How the data were processed

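H3K4me3 ChIP-seq peaks of 2 replicates of DMSO-treated MEL cells were used as deposited, on mm10. Members and gene lists were chosen with earlier results of these data known. The authors deposited a signal value per peak (column 7, here the enrichment value) with −log10 p and −log10 q values and a summit offset; each replicate's list was derived from its own mm10 alignments and 2 further files common to the mm10 lists, per the deposited notes. Neither the labels nor those notes name the peak caller or the scale of the signal. The replicates' own lists gave all values; a pooled, a replicated and an older mm9 list were alternatives. Read depth is not in these files, so no counting interval on reads was computed.

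Gene starts were the first-listed transcript starts of RefSeq promoters (GRCm38.p6), or, for 19 members, the 5' end of the RefSeq gene, with strand from GENCODE M1 by symbol; 352 protein-coding genes without a strand were left out. For 6 members the transcript start lay over 500 bp inside the gene, which moves offsets and domains. Windows were 1000 bp on either side. Domains joined peaks over gaps of up to 1000 bp. Values are means of both replicates; with 1 group and no contrast, no test was run, and genes were not treated as replicates. Genes named in full were the unmarked members, the 10 highest and 5 lowest values, the 5 widest and 5 narrowest domains, the replicate outliers and the listed families; others are examples. A few results on single genes are not reported here. Rules were tested on simulated peaks. Python 3.11.15, pandas 2.3.3, numpy 2.4.6, scipy 1.17.1 and matplotlib 3.10.9 were used.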

Additional observations from a re-analysis of the deposited data

How the results depend on the processing

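Of 168 recomputed values, 124 moved by less than the spread between replicates, or by less than 1.5 times for counts, and 44 moved further. The number of marked members was 76 or 77 under every alternative that kept all members: Rpl17 was lost with a 500 bp window or 100 bp of overlap, and Rps2 with the 5' end of the gene in place of the transcript start. The starts from the 5' end of the gene, members with a listed transcript start only, members without copies, and all results on downstream reach and starts outside peaks were chosen after seeing the data.

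Leaving out 1 replicate gave a median enrichment value of 12.1 to 13.4, a domain width of 2714 to 2819 bp, a peak centre of 640.5 to 671.5 bp downstream, a downstream difference from all marked genes of 515 to 614 bp and a difference in starts outside peaks of 6.88 to 14.9 percentage points. For large minus small subunit the ranges were 33.5 to 53.5 bp in domain width and −92.2 to 28.2 bp in peak centre. The median enrichment value was 11.6 with the peak nearest to the start, and the median −log10 p was 72.6. Peak width, 1630.5 bp as reported, was 1708 bp in the pooled and in the replicated set. Domain width was 2717.5 bp with −log10 q of at least 2 and 2537 bp with at least 5, 1727 bp without joining, 3047 bp joined over 3000 bp and 2874.5 bp at members with a listed transcript start. The peak centre, 542 bp downstream as reported, was at 678.5 bp in the pooled and replicated sets, 389 bp for the domain and 574 bp from the 5' end of the gene. The downstream difference from all marked genes was 464.5 bp with −log10 q of at least 5.

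Large minus small subunit depended most on the choices made. The marked share, −6.68 points as reported, was −8.64 with a 500 bp window or 100 bp of overlap, −1.22 without the listed paralogues, −3.55 from the 5' end of the gene, 0 without copies and −8.33 with listed transcript starts. The value difference was 0.114 with the nearest peak, 4.20 in −log10 p and 0.164 with listed transcript starts, opposite in sign to −1.18. The domain difference, 49.5 bp as reported, was 78.5 bp with a 500 bp window or 100 bp of overlap, 113 and 101 bp at −log10 q of at least 2 and 5, −117 bp in the pooled set, 137 bp in the replicated set, 69 bp without joining and 335.5 bp joined over 3000 bp. It was 74 bp without the listed paralogues or without copies, 138 bp from the 5' end of the gene and 272 bp with listed transcript starts. The centre difference, −105 bp as reported, was 36.8 bp with listed transcript starts. The cause of these shifts was not tested. No paired analysis was possible because the 2 samples form 1 group. Peak lists carry no read counts, so what depth limits could not be measured.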

Other observations

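Some members had starts whose annotation and peaks stood apart. At Rpl17 the start used, the 5' end of the annotated gene, lay outside the domain, which ran from 909 to 3486 bp after it in replicate 1 and from 925 to 3405 bp in replicate 2. Rpl36 shares its start region with Micos13 on the opposite strand. Its domain reached 1760.5 bp upstream and 546.5 bp downstream, the shortest downstream reach among the 77. Further peaks began 1956 bp downstream in replicate 1 and 1931 bp in replicate 2, too far to be joined. Their highest values were 8.72 and 10.3. Upstream reach exceeded downstream reach in both replicates at 11 members, 14.3%, against 24.6% of all marked genes, among them Rpl7, Rpl18, Rps13, Rpl26 and Rpl36al. At Rps29, which had the widest interval holding the start, that interval was 448 bp in replicate 1 and 454 bp in replicate 2.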
